A study of Mus musculus with 6 samples.

Results

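The antigen presentation pathway of MHC class I was examined in primary cultures of neonatal mouse heart, through 10 genes: the classical heavy chains H2-K1 and H2-D1, their light chain B2m, the peptide transporter subunits Tap1 and Tap2, the loading factor Tapbp, the inducible proteasome subunits Psmb8, Psmb9 and Psmb10, and the transactivator Nlrc5. These 10 were listed by gene symbol as a pathway, and all of them were found among the 54532 genes of the deposited table by their Ensembl identifiers. RNA-seq was performed on 6 samples labelled as cardiomyocytes, the contractile cells of the heart, from mice in which Cre recombinase switches the Rit1 locus to the M90I variant of this RAS-related GTPase. The 3 AdGFP samples, labelled Rit1 +/+, had received an adenovirus for GFP on day 3 of culture, and the 3 AdCre samples, labelled Rit1 M90I/+, one for GFP and Cre on that day. All 6 thus carried an adenovirus and GFP. Cells given Cre without the variant allele were not analysed here, so the variant and the recombinase cannot be told apart. Per the methods of the study, hearts were digested with collagenase and pre-plated to remove adherent cells, then seeded at about the cells of a single heart per well, so several cell types may remain. The promoter that drives Cre in the virus is not given in the sources used here. The mouse strain, and so the H2 alleles of these cells, is not given in the sources used here, and gene-level values do not separate alleles. Reads of H2 alleles unlike the reference may map unevenly, which was not tested and bears on the levels of H2-K1 and H2-D1 and on their ratio.

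MHC class I molecules display peptides from inside the cell to CD8 T cells. The proteasome cuts proteins into peptides, TAP carries them into the endoplasmic reticulum, tapasin helps load them, and the heavy chain reaches the surface with B2m. In cells exposed to interferon, Psmb8, Psmb9 and Psmb10 replace the constitutive subunits Psmb5, Psmb6 and Psmb7 to form the immunoproteasome, and NLRC5 acts at the promoters of class I genes. Cardiomyocytes are known for low class I levels at rest. On the reference (GRCm38, GENCODE M21), 7 of the 10 genes lie on chromosome 17, within the MHC, and the remaining 3 are B2m on chromosome 2 and Psmb10 and Nlrc5 on chromosome 8.

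Reads worked back from the values came to between 25.28 and 32.43 M per sample (M, megareads). Values are FPKM, in which the authors divided fragments by exon length and depth. Levels of different genes thus depend on the exon lengths used. In GENCODE M21 these total 860 bases for B2m, 2938 for H2-K1 and 2579 for H2-D1. Differences are on the log2(FPKM + 0.1) scale, AdCre minus AdGFP, which understates those of low genes. They were tested in limma over 13794 genes, those averaging 0.5 FPKM or more, and a gene is called at a Benjamini-Hochberg adjusted p under 0.05. The labels number the biological replicates 1 to 3 in both groups. Rit1 lay between 7.66 and 9.01 FPKM in AdGFP and between 8.90 and 9.58 FPKM in AdCre, which does not check the labels, since both alleles are counted together. Same-numbered samples deviated together, so each number was also fitted as a replicate block, and differences within these 3 pairs are given.

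Of the 10 genes, 8 passed the filter on low values, and Psmb9 and Nlrc5 did not. Without the block, limma called 0 of the 8, against 1 gene of all those tested (0.00725%). At an unadjusted p under 0.05, H2-D1 and Tap1 were higher in AdCre, where 4.71% of all genes were. With the block, limma called H2-D1 higher and H2-K1 lower in AdCre, against backgrounds of 2.64% called higher and 3.51% called lower. Values lay above the paired control in all 3 pairs for 6 of the 8, against 23.9% of all genes tested. They lay below it in all 3 pairs for H2-K1 alone, against 24.5%. The 10 genes were chosen with earlier results of these data known, so comparisons with all genes are descriptive. The median log2 fold change of the 8 was 0.35, beside −0.0022 over all genes tested. It was 0.16 without AdCre replicate 3, the sample with the highest value for 8 of the 10 genes, and 0.58 without AdCre replicate 1.

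**Figure D1:**
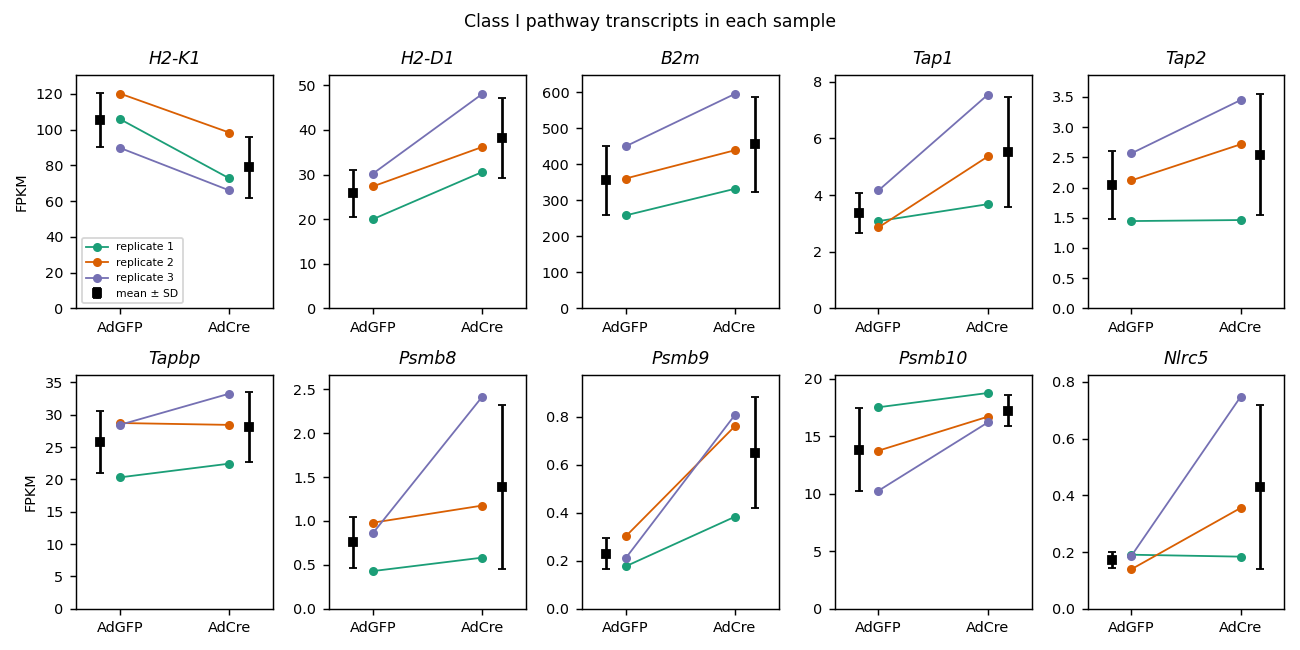
FPKM of each of the 10 genes (y axis from 0, a separate scale per panel) in the 3 AdGFP and 3 AdCre samples, with same-numbered replicates joined and black squares for the mean ± SD of each group. H2-K1 was lower in AdCre in every pair, from 105.9 to 72.8 FPKM in replicate 1, whereas H2-D1 was higher in every pair, from 19.99 to 30.6 FPKM in replicate 1.

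By FPKM, the levels of the 10 genes spanned a wide range. B2m was at or above 258 FPKM in every sample, beyond the range of H2-K1, which in turn lay above H2-D1 in every sample. The ranges of H2-D1 and Tapbp overlapped, and both lay above Psmb10. Tap1, Tap2 and Psmb8 overlapped with their neighbours in that order at a few FPKM, and Psmb9 and Nlrc5 stayed under 1 FPKM throughout. Among the genes tested, the mean level of B2m stood at percentile 99.5 and that of Psmb8 at percentile 12.8.

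The 2 classical heavy chains, which hold the peptide, differed in opposite directions. H2-K1 (ENSMUSG00000061232, chromosome 17, 33996017 to 34000347, minus strand) was at 105.9, 120.2 and 89.8 FPKM in AdGFP 1 to 3 and at 72.8, 98.4 and 66.03 FPKM in AdCre 1 to 3. The groups overlapped, because AdCre 2 lay above AdGFP 3, but each AdCre sample lay below its own pair. The log2 fold change amounted to −0.42 ± 0.19 (SE; limma adjusted p 0.519), and pair differences were −0.54, −0.29 and −0.44. Fitted with the replicate block, the SE was 0.08 (limma adjusted p 0.0440).

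H2-D1 (ENSMUSG00000073411, chromosome 17, 35262730 to 35267499, plus strand) was at 19.99, 27.3 and 30.2 FPKM in AdGFP and at 30.6, 36.2 and 48.04 FPKM in AdCre. The groups did not overlap, with a narrow margin between AdGFP 3 and AdCre 1. Groups were separated in this direction for 7.36% of all genes tested, and for H2-D1 alone among the 8. The log2 fold change amounted to 0.56 ± 0.22 (SE; limma adjusted p 0.459), which is 1.47-fold, and pair differences were 0.61, 0.40 and 0.67. Its SE in the blocked fit was 0.08 (limma adjusted p 0.0276). The exact two-sided permutation test gave 0.1, the smallest p that 3 samples against 3 allow.

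Both blocked calls were close to the threshold. H2-D1 was called in 9 and H2-K1 in 6 of the 13 alternatives of the blocked fit, and neither was called without a filter on low values (limma adjusted p 0.0894 and 0.126). Both missed the threshold without pair 2 (0.0642 for H2-D1 and 0.106 for H2-K1, limma with the block), without pair 3 (0.130 and 0.166) and without a trend (0.0906 and 0.119). H2-K1 alone missed it without pair 1 (0.0830), after rescaling to TPM (0.0657) and after quantile normalization (0.0514). The directions of both genes were the same under all alternatives tried, with log2 fold changes between −0.59 and −0.30 for H2-K1 and between 0.38 and 0.71 for H2-D1.

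The heavy chains share sequence with other class I genes. Of the 50-base words in their transcripts, 9.63% for H2-K1 and 12.8% for H2-D1 also occurred in transcripts of other genes, most often H2-Q10 for H2-K1 and H2-Q1 for H2-D1. How reads that fit several genes were counted is not given in the sources used here, so both values are uncertain to that extent. H2-Q10 was itself low, between 0.21 and 0.97 FPKM, and H2-Q1 between 0 and 0.04 FPKM. H2-Q10 lay below its pair in all 3 AdCre samples, as H2-K1 did (log2 fold change −0.76, limma adjusted p 0.629, and 0.188 with the block). The log2 fold change of H2-Q10 was −0.40 without AdCre replicate 3 and −0.30 with a pseudocount of 1.

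Because the heavy chains differed in opposite directions, their promoter sequences are shown side by side with that of B2m. RefSeq windows (GRCm38.p6) reach from 250 bases before the transcript start to 50 after it, and 8 of the 10 genes have one; Tap2 and Nlrc5 are not among them. Capitals mark a kappaB core (GGGANTCCC), an element of the interferon regulatory factors (AANNGAAA), a CRE half-site (TGACG) and a CCAAT box, each searched on both strands.
H2-K1: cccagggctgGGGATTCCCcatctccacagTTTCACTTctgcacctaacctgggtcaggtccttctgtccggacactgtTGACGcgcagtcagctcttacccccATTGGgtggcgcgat
H2-D1: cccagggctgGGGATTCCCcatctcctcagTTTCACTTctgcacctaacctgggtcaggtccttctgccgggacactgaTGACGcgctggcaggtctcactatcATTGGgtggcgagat
B2m: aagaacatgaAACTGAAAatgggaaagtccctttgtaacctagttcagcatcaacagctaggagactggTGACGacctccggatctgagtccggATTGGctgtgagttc

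The H2-K1 stretch is chr17:34000349-34000467 on the minus strand, the H2-D1 stretch chr17:35262914-35263032 and the B2m stretch chr2:122147540-122147648, both on the plus strand. They end 2, 62 and 39 bases before the start that RefSeq gives, in that order, and H2-K1 has a second start in RefSeq. The heavy chain stretches were identical at 107 of 119 bases. Their kappaB core, interferon element, CRE half-site and CCAAT box stood in the same order, with the last 3 beginning 20, 69 and 94 bases after the first in both genes. B2m held the interferon element, the CRE half-site and the CCAAT box. Looser forms of these sites were not searched, and the kappaB letters as written (GGGANTCCC) were not found in B2m. These letters occurred in 0.767% of all 32851 windows, the interferon element in 23.9%, the CRE half-site in 20.8% and the CCAAT box in 37.4%. A further CCAAT box on the sense strand, outside the stretches shown, began 118 bases after the kappaB core in H2-K1 and 117 in H2-D1. The kappaB core began 170 bases before the start of H2-D1, and 110 or 124 bases before the 2 starts of H2-K1. Whether these sites bear on the transcript differences was not tested.

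B2m (ENSMUSG00000060802, chromosome 2, 122147686 to 122153083), the invariant light chain of all class I molecules, was at 258 FPKM, 360.3 FPKM and 449.5 FPKM in AdGFP and at 332, 439 and 595 FPKM in AdCre. The groups overlapped, although each AdCre sample lay above its own pair. The log2 fold change amounted to 0.35 ± 0.29 (SE; limma adjusted p 0.766), and was 0.14 without AdGFP replicate 1 or AdCre replicate 3, 0.54 without AdGFP replicate 3 and 0.56 without AdCre replicate 1. Pair differences of 0.36, 0.28 and 0.40 were the most even among the 10 genes, and with the block B2m missed the threshold (limma adjusted p 0.0608). It was called in 4 of the 13 alternatives of the blocked fit, among them the one on protein-coding genes and the one on recovered reads.

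Ratios between the chains, chosen after their values were seen and given without a test, show the divergence within each sample. H2-D1 stood at 0.19, 0.23 and 0.34 of the H2-K1 level in AdGFP and at 0.42, 0.37 and 0.73 of it in AdCre, without overlap. The B2m level was 12.9, 13.2 and 14.9 times that of H2-D1 in AdGFP and 10.9, 12.1 and 12.4 times in AdCre. The proportion of B2m to H2-D1 thus varied little, although it was lower in every AdCre sample, whereas B2m stood at 2.44 to 9.01 times H2-K1. Set against each of 10 cardiomyocyte markers in turn, the log2 ratio of H2-K1 was higher in AdCre for 8 and lower for 2, Myl7 and Myh7, and the differences ran from −0.21 to 0.88. The groups did not overlap for the ratios to Actn2 and Pln, and overlapped for the remaining 8.

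**Figure D2:**
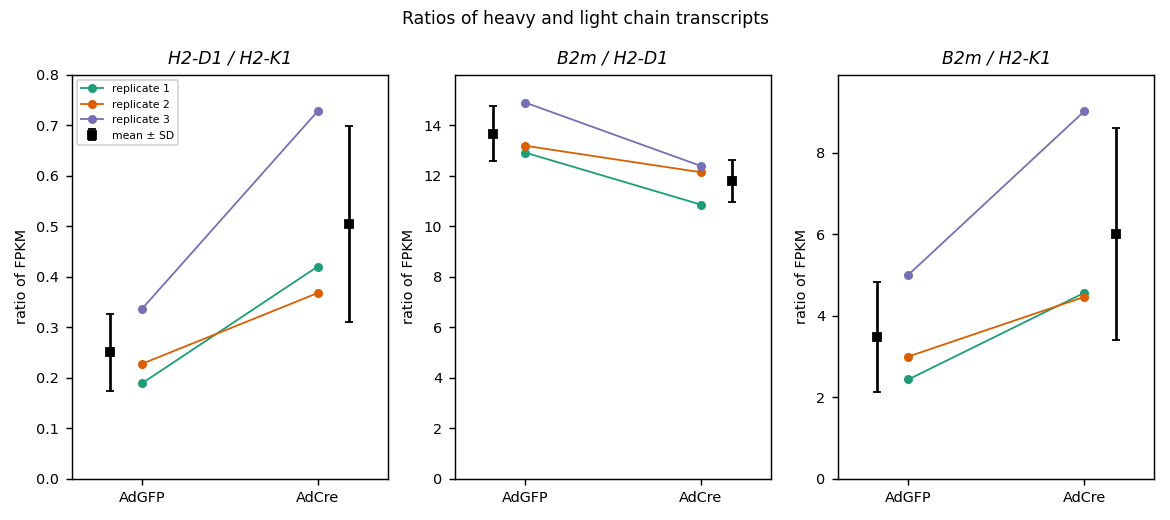
Ratios of FPKM (y axis from 0) for H2-D1 over H2-K1, B2m over H2-D1 and B2m over H2-K1 in each sample, with same-numbered replicates joined and black squares for mean ± SD. The first ratio lay between 0.19 and 0.34 in AdGFP and between 0.37 and 0.73 in AdCre, and the third between 2.44 and 5.004 in AdGFP and between 4.46 and 9.01 in AdCre, with overlap.

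Tap1 and Tap2 form the transporter that brings peptides into the endoplasmic reticulum. Tap1 (ENSMUSG00000037321, chromosome 17, 34187553 to 34197225) was at 3.08, 2.86 and 4.16 FPKM in AdGFP and at 3.68, 5.36 and 7.54 FPKM in AdCre. AdCre 1 lay within the AdGFP range, and the other AdCre samples lay above it. The log2 fold change amounted to 0.66 ± 0.28 (SE; limma adjusted p 0.491), from pair differences of 0.25, 0.88 and 0.84. With the block, Tap1 missed the threshold (limma adjusted p 0.0655), and it was called in 4 of the 13 alternatives, among them the one without pair 1. Its log2 fold change was 0.41 without AdCre replicate 3. Tap2 (ENSMUSG00000024339, chromosome 17, 34203527 to 34216321) was at 1.45, 2.12 and 2.56 FPKM in AdGFP and at 1.46, 2.71 and 3.45 FPKM in AdCre. AdCre 1 stood at the low end of the AdGFP range, level with its own pair, and the other AdCre samples lay above that range (log2 fold change 0.26, standard error 0.35, limma adjusted p 0.881). That difference came to 0.0046 when AdCre 3 was left out, to 0.04 when AdGFP 1 was and to 0.17 when AdCre 2 was, and it went up to 0.43 when AdGFP 3 was left out and to 0.60 when AdCre 1 was.

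Tapbp (ENSMUSG00000024308, chromosome 17, 33915899 to 33929292), which encodes tapasin, was at 20.3, 28.7 and 28.4 FPKM in AdGFP and at 22.4, 28.4 and 33.2 FPKM in AdCre. Its log2 fold change was 0.12 ± 0.20 (SE; limma adjusted p 0.910) and fell below 0 without AdGFP replicate 1 or AdCre replicate 3. No difference larger than the spread between replicates was found for it. Annotated genes on the opposite strand cover 24.9% of Tapbp, 18.5% of Tap2 and 14.7% of Psmb8 exon bases, and the counting is not stated to use strand, so reads of such partners cannot be told apart.

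The starts of Tap1 and Psmb9 lie back to back on chromosome 17, separated by 225 bases (chr17:34187331-34187555, GRCm38.p6), which are shown on the strand of Tap1 because they precede both starts. Capitals mark a CCAAT box and a CRE half-site. The letters searched for the kappaB core and the interferon element were not found there. Neither was TTCNNNGAA, a STAT-binding (GAS) pattern that occurs in 8.3% of windows. Psmb8 was the single gene of the 8 with that pattern, 97 bases before its start.
Tap1 and Psmb9: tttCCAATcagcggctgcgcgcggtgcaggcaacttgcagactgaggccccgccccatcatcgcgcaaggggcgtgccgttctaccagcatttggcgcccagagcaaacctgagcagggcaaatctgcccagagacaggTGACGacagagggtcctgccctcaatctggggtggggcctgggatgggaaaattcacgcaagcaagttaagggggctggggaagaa

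The inducible proteasome subunits had very different levels. Psmb9 (ENSMUSG00000096727, chromosome 17, 34181987 to 34187764, minus strand), which takes the place of Psmb6, was at 0.18, 0.30 and 0.21 FPKM in AdGFP and at 0.38, 0.76 and 0.81 FPKM in AdCre. These values rest on 16 to 82 recovered reads, and the AdCre samples all lay above the AdGFP samples. Its mean was under the filter, and in the fit without a filter the difference amounted to 1.15 ± 0.39 on the log2 scale (SE; limma adjusted p 0.558, and 0.219 with the block). In that blocked fit 0.0387% of 28445 genes were called higher. Its neighbour Tap1 shares 5.79% of Psmb9 exon bases on the opposite strand. Both genes of this shared stretch had positive differences in all 3 pairs, as did 23.9% of all genes tested, and neither was called.

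Psmb8 (ENSMUSG00000024338, chromosome 17, 34197721 to 34201454), which takes the place of Psmb5, was at 0.43, 0.98 and 0.86 FPKM in AdGFP and at 0.58, 1.18 and 2.41 FPKM in AdCre. AdCre 3 stood well above the other samples, and the remaining AdCre values lay within or just above the AdGFP range. The log2 fold change amounted to 0.67 ± 0.52 (SE; limma adjusted p 0.754, and 0.231 with the block), and it ran from 0.19 without AdCre replicate 3 to 1.13 without AdCre replicate 1. Psmb10 (ENSMUSG00000031897, chromosome 8, 105935735 to 105938444), which takes the place of Psmb7, was far more abundant, at 17.5, 13.7 and 10.3 FPKM in AdGFP and at 18.8, 16.7 and 16.2 FPKM in AdCre. Unlike the other genes of the pathway, it was highest in replicate 1 of both groups. Its log2 fold change amounted to 0.34 ± 0.20 (SE; limma adjusted p 0.638, and 0.156 with the block), and was 0.15 without AdGFP replicate 3 and 0.53 without AdGFP replicate 1.

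**Figure D3:**
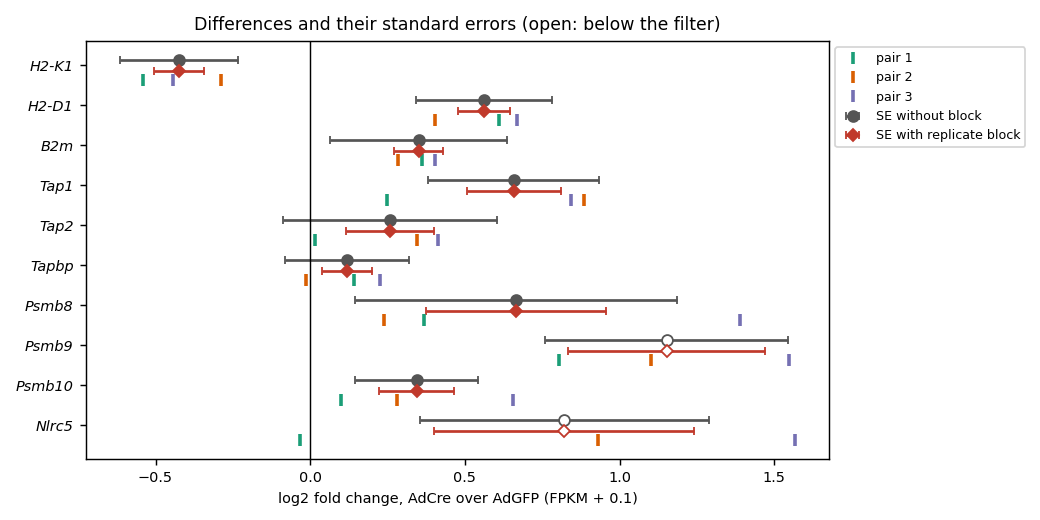
Log2 fold change of each gene, AdCre over AdGFP, on the log2(FPKM + 0.1) scale (x axis), with standard errors from limma without (grey) and with (red) the replicate block, and ticks for the 3 pairs. Open symbols mark Psmb9 and Nlrc5, taken from the fit without a filter. H2-K1 stands at −0.42 and the other 9 genes between 0.12 and 1.15.

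The exchange of subunits was followed as the level of each inducible subunit in percent of its constitutive counterpart. Psmb8 stood at 0.34%, 1.25% and 1.38% of Psmb5 in AdGFP and at 0.54%, 1.62% and 3.29% in AdCre. Psmb9 stood at 0.31%, 0.75% and 0.55% of Psmb6 in AdGFP and at 0.64%, 1.84% and 1.80% in AdCre. Of the 50-base words in Psmb5 transcripts, 54.1% also occurred in transcripts of other genes, most often Gm3375, so the level of Psmb5 and its ratio are uncertain to that extent. Psmb10 stood at 58.97%, 65.1% and 57.8% of Psmb7 in AdGFP and at 61.6%, 73.7% and 75.6% in AdCre. By FPKM, the constitutive subunits thus exceeded Psmb8 and Psmb9 by a wide margin in both groups, and Psmb7 exceeded Psmb10 by less. These levels depend on the exon lengths used, which in GENCODE M21 are 1705 bases for Psmb10 and 3421 for Psmb7. They are 3381 for Psmb8, 899 for Psmb5, 3660 for Psmb9 and 1872 for Psmb6. The percentages thus reflect length as well as reads, and shares of reads were not compared. The differences in log2 ratio were 0.70, 1.04 and 0.21 for the 3 subunits, each positive in all 3 pairs. Exact two-sided permutation tests gave 0.4, 0.2 and 0.2, or 0.4, 0.3 and 0.3 adjusted over the 3 ratios, where 0.1 is the smallest p possible, so these tests could not pass 0.05. The Psmb8 ratio rested on replicate 3 of AdCre and replicate 1 of AdGFP: without them its difference was 0.14 and 0.10, and it was 1.35 without AdCre replicate 1. Their size also moved with the pseudocount: with 1 the Psmb8 ratio differed by 0.43 and the Psmb9 ratio by 0.31, and with 0.01 the Psmb9 ratio differed by 1.31.

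**Figure D4:**
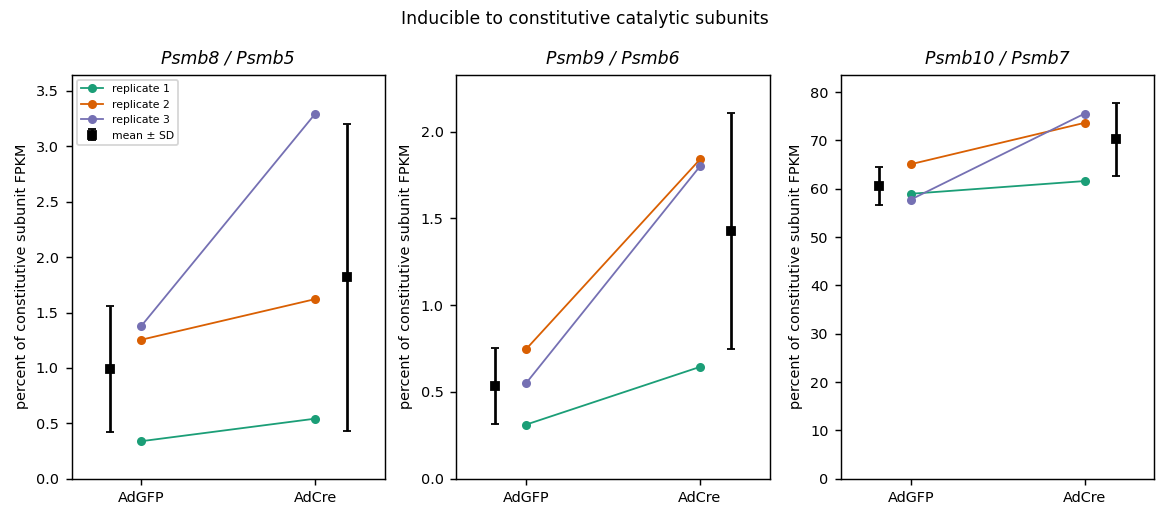
Level of each inducible proteasome subunit in percent of its constitutive counterpart (y axis from 0, a separate scale per panel), per sample, with same-numbered replicates joined and black squares for mean ± SD. Psmb8 and Psmb9 stayed between 0.31% and 3.29% of Psmb5 and Psmb6, and Psmb10 between 57.8% and 75.6% of Psmb7.

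None of the constitutive subunits in these ratios was called. Psmb5 had a log2 fold change of −0.04, Psmb6 of 0.11 and Psmb7 of 0.14 (limma adjusted p 0.864, 0.428 and 0.364 with the block). Each of these differences changed sign when single samples were left out, over ranges of −0.26 to 0.25, −0.04 to 0.29 and −0.03 to 0.34. None of the 11 other 20S subunits tested was called either, with log2 fold changes between −0.07 and 0.19. Of these, Psmb3 and Psma7 had the smallest p, at log2 fold changes of 0.19 for both (limma adjusted p 0.212 and 0.244 with the block), and of 0.06 and 0.03 without AdCre replicate 1.

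Nlrc5 (ENSMUSG00000074151, chromosome 8, 94434356 to 94527272), the transactivator of class I genes, was at 0.19, 0.14 and 0.19 FPKM in AdGFP and at 0.18, 0.36 and 0.75 FPKM in AdCre. The first AdCre sample lay among the controls, and the other AdCre samples lay above them. The values rest on 30 to 176 recovered reads. In the fit without a filter the difference amounted to 0.82 ± 0.47 on the log2 scale (SE; limma adjusted p 0.753, and 0.464 with the block), and pair differences were −0.03, 0.93 and 1.57. Nlrc5 was thus not called, and its pairs did not agree in sign.

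Factors that act around the pathway were counted over lists written with results of these data known. Of 12 transcription factors of class I promoters, all of them tested, the block called Irf1 higher and Rfxank lower. Irf1, an interferon-induced factor that binds class I promoters, was at 2.43, 2.84 and 4.11 FPKM in AdGFP and at 4.12, 3.87 and 5.93 FPKM in AdCre (log2 fold change 0.56, limma adjusted p 0.508, and 0.0470 with the block). Rfxank, a subunit of the RFX complex at the promoters of class I and class II genes, was at 10.1, 9.78 and 8.67 FPKM in AdGFP and at 6.52, 7.18 and 6.32 FPKM in AdCre (log2 fold change −0.51, limma adjusted p 0.267, and 0.0358 with the block). Each was called in 8 of the 13 alternatives of the blocked fit, and neither when any of the 3 pairs was left out (limma adjusted p 0.0954, 0.130 and 0.171 for Irf1 and 0.0720, 0.124 and 0.136 for Rfxank without pairs 1, 2 and 3).

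Among 12 interferon ligands, receptors and signal transducers, 10 were tested and the block called 1, Irf9, the DNA-binding subunit of the factor that answers type I interferon. It was at 2.87, 3.67 and 4.86 FPKM in AdGFP and at 4.03, 5.41 and 9.32 FPKM in AdCre (log2 fold change 0.65, limma adjusted p 0.577, and 0.0430 with the block). The difference was 0.32 without AdCre replicate 3, and Irf9 was not called without pair 2 or pair 3 (limma adjusted p 0.127 and 0.164). The ligand genes Ifnb1 and Ifng, named after their values were seen, were listed at 0 in all 6 samples. None of the 7 loading partners, which fold or trim peptides and heavy chains, was called. Those with the smallest p were Pdia3 and Calr, at log2 fold changes of 0.20 and 0.21 (limma adjusted p 0.171 and 0.190 with the block).

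Of 9 proteasome activators and assembly factors, the block called only Psme4, which encodes the activator PA200. It was at 29.6, 37.2 and 33.98 FPKM in AdGFP and at 22.1, 25.97 and 23.3 FPKM in AdCre, without overlap (log2 fold change −0.49, limma adjusted p 0.310, and 0.0270 with the block), and was not called without pair 2 or pair 3 (limma adjusted p 0.113 and 0.130). The interferon-inducible activator subunits Psme1 and Psme2, named after their values were seen, had log2 fold changes of 0.20 and 0.41 and were not called (limma adjusted p 0.194 and 0.0713 with the block).

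The samples were checked for markers of other cell types. Macrophage and endothelial markers were present, and their part in the results was not tested. Without the block, limma called none of the markers in these lists. The summed level of 10 macrophage markers lay between 52.1 and 285 FPKM in AdGFP and between 92.02 and 358 FPKM in AdCre, lowest in replicate 1 of each group. The block called 2 of the 9 tested higher, C1qb and Lyz2, and 0 lower. They were called in 8 and 6 of the 13 alternatives of the blocked fit, and their log2 fold changes of 0.50 and 0.51 turned to −0.12 and −0.30 without AdGFP replicate 1. Of their defining markers, Adgre1 was at 1.01, 3.01 and 4.13 FPKM in AdGFP and at 1.18, 3.43 and 4.04 FPKM in AdCre, and Csf1r was at 2.15, 3.40 and 4.63 FPKM and at 4.40, 4.50 and 5.31 FPKM. In AdGFP and in AdCre alike, B2m, H2-D1 and Tap2 were lowest in replicate 1 and highest in replicate 3, as were Adgre1, Csf1r and the summed fibroblast and endothelial markers.

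Endothelial markers summed to between 87.7 and 138 FPKM in AdGFP and between 129 and 192 FPKM in AdCre, with Eng, Flt1 and Cdh5 called higher with the block among 8 tested, each in 9 of the 13 alternatives of that fit. The log2 fold change of Cdh5, 0.42, was 0.17 without AdCre replicate 3. The 10 cardiomyocyte markers summed to between 2275 and 3324 FPKM in AdGFP and between 1387 and 2000 FPKM in AdCre, without overlap. Of these markers, 6 were called lower with the block, among them Pln, Myl2, Tnni3 and Tnnt2. Without pair 3 or without a trend, the blocked fit called 0 of all genes tested lower, so these calls were lost there. In bulk samples, fewer cells of a type and less RNA per cell cannot be told apart. H2-K1 had a difference below 0, as did all 10 cardiomyocyte markers, 7 of 8 fibroblast markers and 5 of 6 epicardial and mesothelial markers, and the other 9 genes had differences above 0, as all 9 macrophage and 8 endothelial markers tested did. Their part in the difference between H2-K1 and the rest was not tested.

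Fibroblast markers summed to between 2589 and 4644 FPKM in AdGFP and between 2272 and 3324 FPKM in AdCre, with Dcn, Lum and Col3a1 called lower among 8 with the block. Dcn was called in 9, Lum in 8 and Col3a1 in 4 of the 13 alternatives of that fit. Their log2 fold changes of −0.79, −0.49 and −0.47 came to −0.34, 0.03 and −0.14 without AdCre replicate 1. In the same fit, of 6 epicardial and mesothelial markers only Tbx18 was called, lower (in 6 of the 13 alternatives), and of 6 mural markers none was, with Pdgfrb and Rgs5 nearest to the threshold. None of 10 lymphocyte and NK markers reached the filter. They summed to between 0.39 and 0.51 FPKM in AdGFP and between 0.66 and 1.3 FPKM in AdCre, without overlap. Cd79a, a subunit of the B cell receptor, made up 1.14 of the 1.3 FPKM in AdCre 1. Cd3e and Ncr1 were listed at 0 in every sample, and Ptprc lay between 0.11 and 0.46 FPKM. Defining markers of the T and NK cells that read class I were thus at or near 0.

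**Figure D5:**
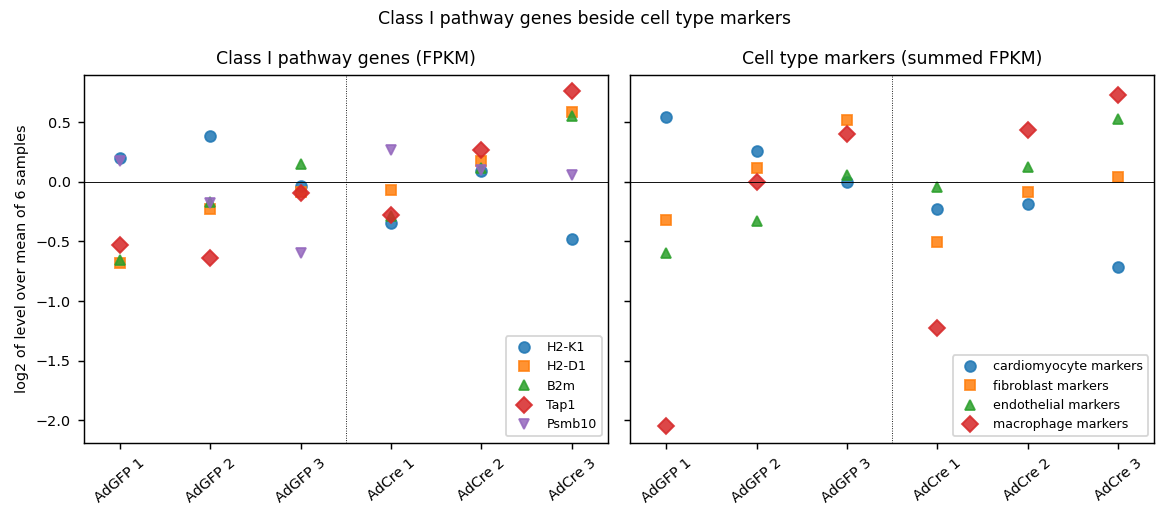
Log2 of each level over its own mean of the 6 samples (y axis), for 5 genes of the pathway by FPKM (left) and for 4 marker lists by summed FPKM (right), with AdGFP samples left and AdCre samples right of the dotted line. H2-D1, B2m and Tap1 were highest in AdCre 3, the sample in which H2-K1 and the cardiomyocyte markers, at 1387 FPKM, were lowest.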

How the data were processed

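RNA-seq of 6 samples (3 AdGFP, 3 AdCre) was deposited as 1 table of FPKM per gene, which the authors scaled to exon length and depth, with no pooling. The submitters' processing notes name fastp, STAR 2.5, HTSeq 0.6.1 and mm10. The annotation release, multiple mapping and strand are not given in the sources used here. Symbols, coordinates and exon lengths came from GENCODE M21, which holds 54495 of the 54532 identifiers. FPKM times exon length gave whole reads (within 0.02) for 96.8% of genes. H2-K1, Psmb8, Tapbp and Psmb9 were among the exceptions, so the authors' exon lengths for them may differ, which bears on levels but not on differences between samples.

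Values were tested as log2(FPKM + 0.1) in limma 3.58.1 (R 4.3.3), lmFit and eBayes with a trend, over genes averaging 0.5 FPKM or more, with the Benjamini-Hochberg adjustment over all of them. Ratios were tested with exact permutation tests (scipy 1.17.1). The labels call the samples biological replicates. Deviations from group means correlated between same-numbered samples (0.568, 0.268 and 0.506) and from −0.497 to 0.036 otherwise. As every same-numbered value is above 0.1, the numbers were read as pairs, on these values only. Within groups, no library repeats another (chi-square per degree of freedom 35.3 to 112.5). The fit was tested on simulated data.

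The 10 genes and 19 lists (147 genes) were chosen with earlier results of these data known. All 10 were named, plus at most 4 called genes a list (at most 2 where none was called) with the smallest blocked p, the constitutive subunits and defining markers, of which 1 is not reported here. Cd79a, Gm3375, Myl7, Myh7, Actn2, H2-Q1, H2-Q6, H2-Q7, H2-Q10, Ifnb1, Ifng, Psme1 and Psme2 were named after their values were seen. As alternatives, the pseudocount was 1 or 0.01, the filter was dropped or raised to 1 FPKM, genes were limited to protein-coding ones, and values were rescaled to TPM, centred on the median or quantile-normalized. Further ones were a fit with no eBayes trend, voom on recovered reads, the replicate block, and leaving out samples or pairs. Promoter windows came from RefSeq (GRCm38.p6).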

Additional observations from a re-analysis of the deposited data

How the results depend on the processing

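Limma called 0 of the genes of the pathway tested in every alternative without the block, and 2 with the replicate block. The blocked count of 2 was 0 without a filter, without a trend, without pair 2 and without pair 3, and 4 (H2-K1, H2-D1, B2m and Tap1) on protein-coding genes and on recovered reads (voom). It was 3 after rescaling to TPM (H2-D1, B2m and Tap1), and it was 2 but of other genes after quantile normalization (H2-D1 and B2m) and without pair 1 (H2-D1 and Tap1). The median log2 fold change of the genes tested ran from 0.16 to 0.58 when each sample was left out. Over all genes the unblocked count of 1 became 3 with a pseudocount of 1, 4 without a trend, 0 without a filter (2168 at an unadjusted p under 0.05) or with voom (1448), 0 to 2 when a sample was left out, and 848 with the block. The blocked 848 became 17 without a filter, 0 without a trend (3122 at an unadjusted p under 0.05), 1741 with voom, 149 without pair 2 and 1 without pair 3. Rescaling to TPM turned its split of 364 higher and 484 lower into 538 and 337. Causes were not tested. Tapbp was at −0.046 without AdGFP replicate 1 and at −0.014 without AdCre replicate 3, and ran up to 0.27 when other samples were left out. The log2 fold changes of the other 7 genes that passed the filter kept their sign, as did the 3 subunit ratios, and the block (exact sign-flip p 0.25 for each ratio, the smallest 3 pairs allow) changed no call of the pathway other than H2-K1 and H2-D1. Psmb9 and Nlrc5 could be tested only without a filter, since their mean lay below it.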

Other observations

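Class I-like chains outside the classical pair differed in both directions. Of 18 listed, 13 were tested, and with the replicate block limma called Hfe and Mr1 lower and H2-T24 higher. Hfe, which takes part in iron uptake control, was at 7.01, 10.7 and 7.92 FPKM in AdGFP and at 3.71, 5.66 and 4.75 FPKM in AdCre (log2 fold change −0.84, limma adjusted p 0.296, and 0.0151 with the block). Mr1, which presents vitamin B metabolites to MAIT cells, had a log2 fold change of −0.62 (limma adjusted p 0.544, and 0.0372 with the block), and of −0.39 without AdCre replicate 1. H2-T24 was at 1.73, 2.01 and 2.23 FPKM in AdGFP and at 2.504, 3.85 and 3.34 FPKM in AdCre (log2 fold change 0.66, limma adjusted p 0.344, and 0.0498 with the block). None of the 3 was called without pair 2 (limma adjusted p 0.0679 for Hfe, 0.108 for Mr1 and 0.203 for H2-T24) or without pair 3 (0.0798, 0.152 and 0.163), and H2-T24 missed the threshold without pair 1 (0.0552). The median log2 fold change of these 13 was −0.62. H2-Q6 and H2-Q7, named after their values were seen, had log2 fold changes of −1.24 and −1.17 and were not called (limma adjusted p 0.196 and 0.0887 with the block). Across the alternatives they ran from −2.04 to −0.61 and from −1.87 to −0.73.

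Of 7 genes of class II and its transactivator, 5 were tested and limma called none with the block. H2-DMa had a log2 fold change of 0.68 and H2-Ab1 of −0.95 (limma adjusted p 0.0506 and 0.0966 with the block). When single samples were left out, the first ran from 0.27 (without AdCre replicate 1) to 1.08 (without AdGFP replicate 1) and the second from −1.43 (without AdCre replicate 2) to −0.48 (without AdCre replicate 3). Between the outermost of the pathway's genes on chromosome 17, 33915899 to 35267499, another 54 genes were tested, a set chosen after the values were seen. The block called 1 of them, Ager, and their median log2 fold change was −0.01.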
